A study of Saccharomyces cerevisiae with 7 samples.

Results

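Transcript levels of 72 genes of ribosome biogenesis and RNA polymerase I were described in budding yeast, Saccharomyces cerevisiae, out of 5449 genes measured on one-colour Affymetrix arrays. The genes were chosen by name from the platform annotation. They comprise every symbol made of UTP (18 genes), NOP (17 genes) or RRP (18 genes) and a number, and 19 further genes given by name, among them NSR1, SRD1 and 4 RNA polymerase I subunits. By known role they fall into 4 polymerase subunits, 6 members of the UTP-A subcomplex, 4 of UTP-B, 3 of UTP-C, 22 U3 snoRNP and other small-subunit factors, 7 core proteins of small nucleolar RNPs, 18 large-subunit factors, 7 RNA exosome subunits and SRD1. The exosome subunits also degrade and trim RNAs other than rRNA, so the symbol rule reaches somewhat beyond ribosome assembly.

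Ribosomal RNA is transcribed in the nucleolus by RNA polymerase I as a long precursor, which is cleaved, trimmed and chemically modified while ribosomal proteins join it. The UTP subcomplexes, the U3 snoRNP and their partners build the small-subunit processome on the growing precursor, and other factors, many of them DEAD-box RNA helicases, shape the large subunit. In budding yeast these genes form a well-known regulon that is expressed with growth rate and is lowered in stress.

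The 7 samples were 3 of wild type, 2 of an ssn6 deletion and 2 of a tup1 deletion, all in BY4742, a haploid laboratory strain of alpha mating type that carries deletions in the marker genes HIS3, LEU2, LYS2 and URA3. Cultures of 200 mL in the rich medium YEP with 2% glucose were harvested at a cell density (OD600) of 0.8. CYC8 encodes Ssn6, the partner of Tup1 in a single corepressor, and each deletion removes its protein throughout growth. The labels give neither the number of clones nor whether replicates were separate cultures, so the p-values rest on a spread among these arrays that may be technical only.

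The values are log2 levels after the authors' normalization. The median over all genes was 10.95 to 11.06 on the 7 arrays, and a background floor, the 95th percentile of the fission yeast probe sets, was 5.50 to 5.67. All 72 genes lay above the floor on every array, the lowest value being 6.34, so none was lost to a filter. CYC8 read 11.22, 11.32 and 11.24 in wild type and 5.62 and 6.07 in the ssn6 deletion, and it fell by 5.42 ± 0.16 (SE, adjusted p = 3.31e-06). TUP1 was under the floor on both tup1 arrays and lower there by at least 92.7-fold (adjusted p = 9.61e-06). Wild type carried the alpha-specific transcripts, with STE3, the a-factor receptor gene, at 12.2 to 12.4 and MFA2, an a-factor gene, at 6.94 to 7.49. In both deletions 7 of 7 a-specific genes rose, MFA2 most (by 5.45 ± 0.22 in ssn6 and 4.23 ± 0.22 in tup1). Of 4 alpha-specific genes, 2 fell in ssn6 and 4 in tup1. Of the strain's marker genes, URA3 and LYS2 were under the floor, LEU2 was at it, and HIS3 read 11.82 to 12.57.

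Of the ribosome biogenesis genes, 71 had a lower mean in ssn6 than in wild type, UTP22 being the exception, and 72 had a lower mean in tup1. Of all 5449 genes, 3464 had a lower mean in ssn6 and 3089 in tup1. Most of the ssn6 differences of the 72 did not pass the test. In the ssn6 deletion 12 of 72 fell and 0 rose at an adjusted p of 0.05, against 10.3% of all genes called lower and 9.18% called higher. In the tup1 deletion 43 of 72 fell and 0 rose, against 12.6% of all genes called lower and 10.4% called higher. The median difference from wild type over the 72 genes was −0.61 on the log2 scale in ssn6 and −1.05 in tup1, while over all genes tested it was −0.14 and −0.08. The 3 wild-type arrays serve both comparisons. In bulk RNA, fewer cells with a transcript and less of it per cell cannot be told apart, and normalization between arrays can hide a change of total mRNA.

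On single arrays, as a median over the 72 genes, tup1 array 1 alone lay below the ssn6 arrays, and tup1 array 2 was level with them. Gene by gene, tup1 array 2 lay below both ssn6 arrays for 28 of the 72 and above both for 36. Of all 5449 genes, 1939 lay below and 2795 above. Relative to each gene's wild-type mean, the median of the 72 genes was 0.06, 0.15 and −0.15 on wild-type arrays 1 to 3, −0.58 and −0.61 on the ssn6 arrays, and −1.57 and −0.60 on the tup1 arrays. Over all genes these medians stayed between −0.15 and 0.03. The roles differed in direction. The median on tup1 array 2 was −0.87 for the polymerase subunits, against −0.56 and −0.55 on the ssn6 arrays. For the large-subunit factors it was −0.52, against −0.69 and −0.74. Both ssn6 arrays lay below all wild-type arrays for 61 of the 72 genes (39.1% of all genes did, and 20.3% lay above all of them), and for the other 11 the groups overlapped. Both tup1 arrays lay below all wild-type arrays for 62 (30.0% of all genes did, and 22.0% lay above), and 10 overlapped. The 72 genes varied within wild type as other genes did, with a median SD of 0.224 against 0.217 over all genes. Wild-type array 3 was the lowest of its group for 52 of the 72.

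**Figure D1:**
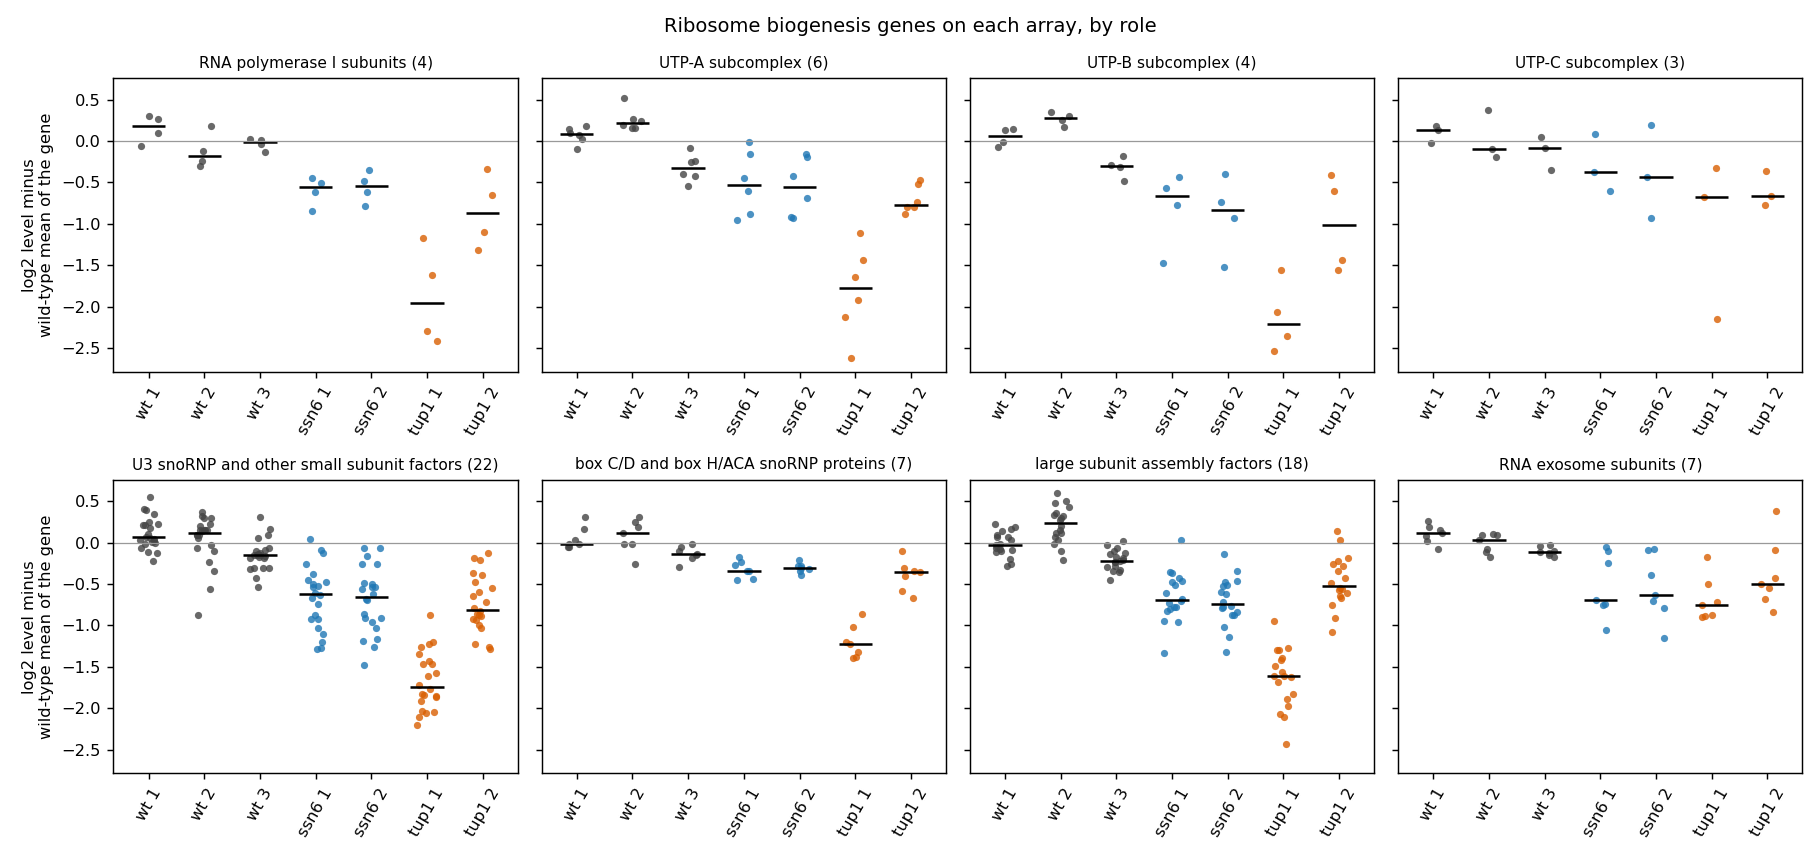
Log2 level of each gene minus its own wild-type mean (vertical axis) on the 7 arrays (horizontal axis), in 1 panel per role with the number of genes, SRD1 not included. Points are genes and bars are medians. Both ssn6 arrays and tup1 array 2 lie below wild type in most panels, and tup1 array 1 has the lowest median in every panel, though by little for the exosome and UTP-C genes.

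The 2 tup1 arrays stood apart from each other on these genes, and calls in tup1 are given with all arrays and without array 1. Array 1 was below array 2 for 71 of the 72 genes, by a median of 1.004, while over all genes the median gap was 0.04 in the other direction. The gap was over 1 for 36 of the 72 genes (50.0%), and 3.40% of all genes had a gap of that size in either direction. Array 1 was the lowest of all 7 arrays for 69 of the 72 genes, compared with 22.3% of all genes. The ssn6 arrays differed by a median of 0.07 on the same genes. Array 1 also had the lowest mean over 17 rRNA control probe sets and over 127 ribosomal protein genes, as given further on, and the part of these in the result was not tested.

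Without tup1 array 1 the 72 genes still had a median difference of −0.60 from wild type, close to that of the ssn6 deletion, and 13 remained called lower (3.62% of all genes were). These were DBP2, KRR1, NOP6, NOP9, RPA43, RPA49, RRP45, RRP9, SRD1, UTP11, UTP4, UTP6 and UTP7. Without tup1 array 2, 65 were called lower (14.1% of all genes were), with a median of −1.57. Without wild-type array 1, 2 or 3 the counts were 17, 30 and 27, where 7.07%, 13.1% and 9.51% of all genes were called lower. Without either ssn6 array the count was 24 (6.92% of all genes). Of the 43 genes, 11 stayed past the threshold in all 17 alternative settings at this threshold: KRR1, NOP6, NOP9, RPA43, RPA49, RRP45, RRP9, SRD1, UTP11, UTP6 and UTP7. Not all 17 settings are distinct fits, as given under the processing.

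The 12 calls in the ssn6 deletion rested on both of its arrays. Without ssn6 array 1 or 2 RRP45 alone was called, and 1.43% and 0.954% of all genes were called lower. Without wild-type array 1 there were 5 calls (6.44% of all genes), so in these 3 fits the share of the 72 genes was near that of all genes. Without either tup1 array, whose gap then no longer adds to the estimated spread, there were 30 calls (11.2% of all genes), and without wild-type array 2 or 3 there were 11 (11.8% and 8.52%). RRP45 was called lower in all 17 settings, which are not all distinct fits. At an unadjusted p under 0.05, 27 of the 72 genes passed in ssn6 (37.5%, against 36.2% of all genes in either direction) and 63 in tup1 (87.5%, against 38.4%).

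**Figure D2:**
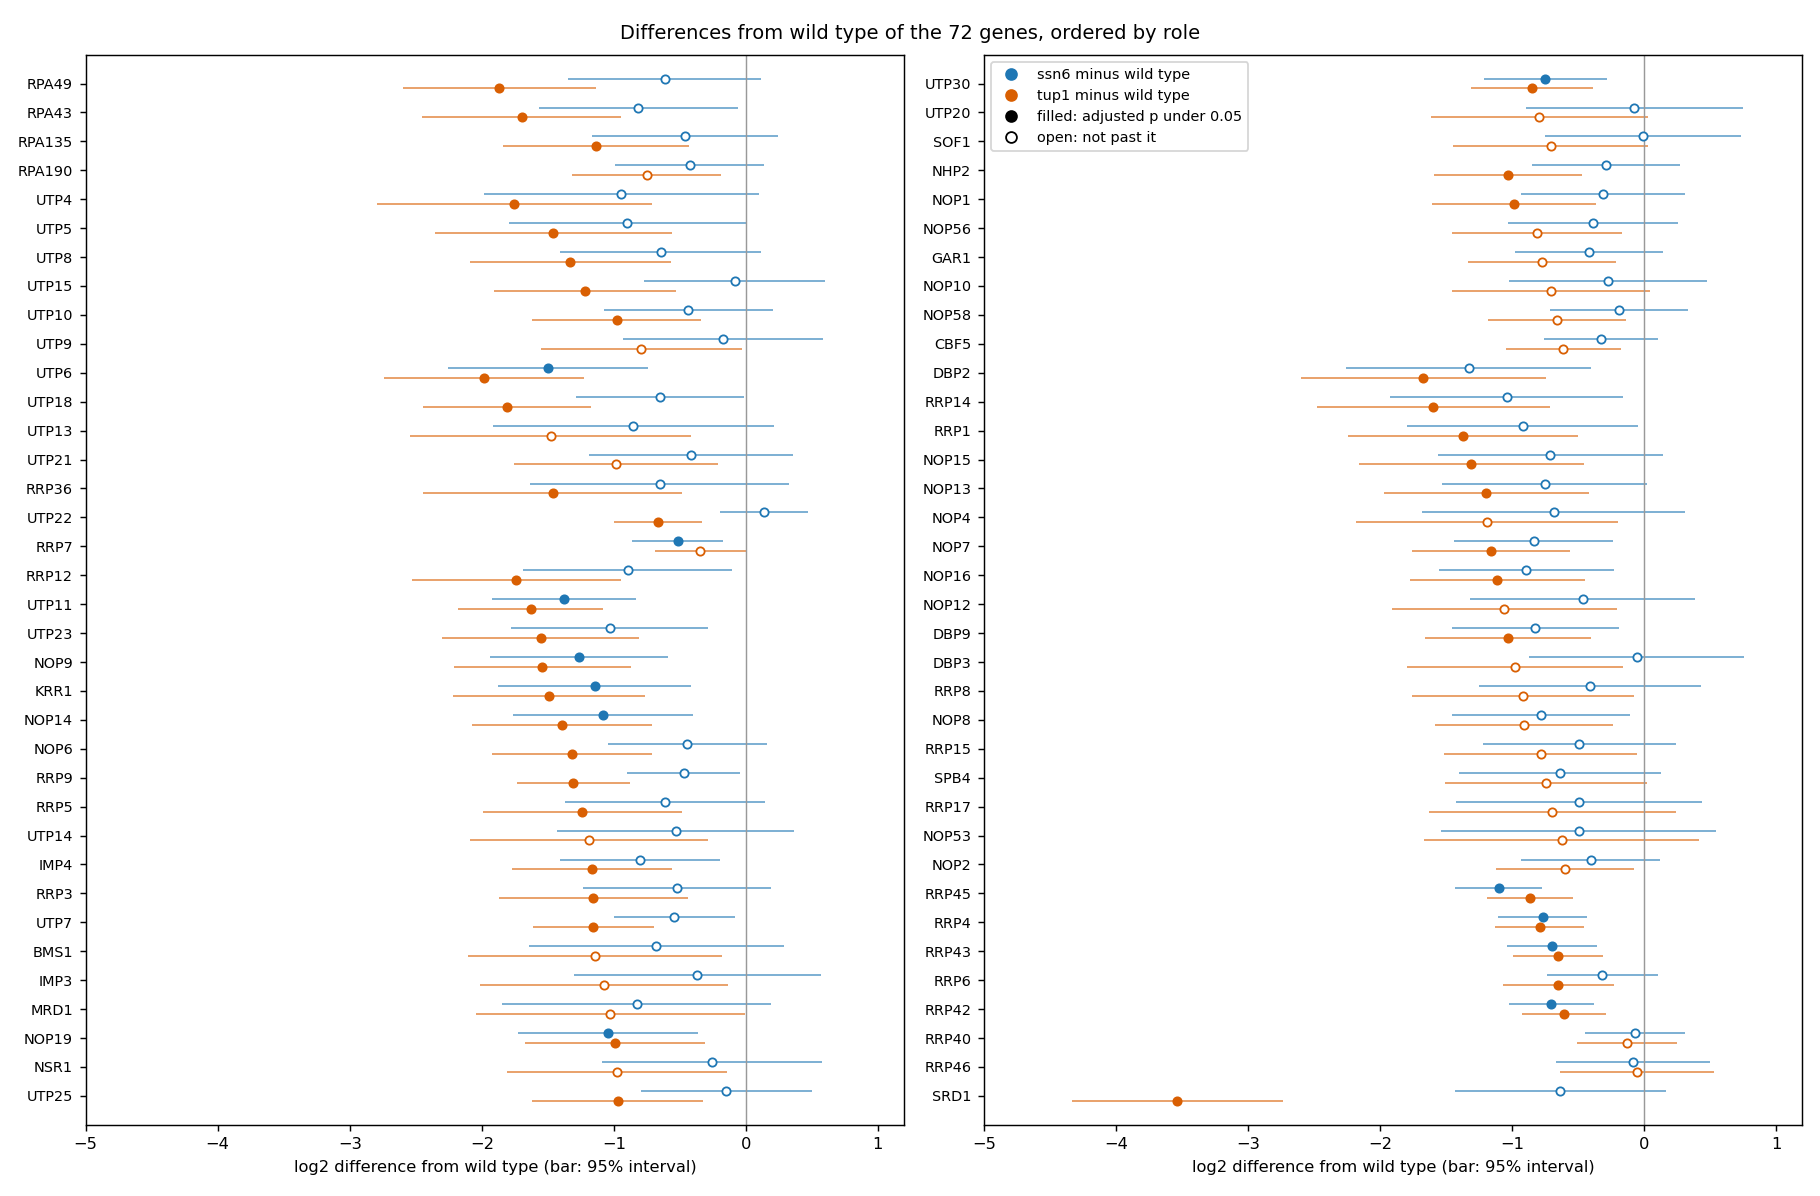
Log2 difference from wild type (horizontal axis) with its 95% interval for each of the 72 genes, ordered by role, in the ssn6 deletion (blue) and the tup1 deletion (orange). Filled points passed an adjusted p of 0.05, which 12 genes did in ssn6 and 43 in tup1, and SRD1 in tup1 lies far to the left of all others.

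Among the RNA polymerase I subunits, 3 of 4 fell in the tup1 deletion and 0 of 4 in the ssn6 deletion. RPA49, whose product forms a heterodimer that aids initiation and elongation, read 11.59, 11.08 and 11.28 in wild type, 10.70 and 10.70 in ssn6, and 8.90 and 9.99 in tup1. It fell in tup1 by 1.87 ± 0.31 (3.65-fold, adjusted p = 0.00731), and all tup1 values lay below all others. RPA43, a stalk subunit that contacts the initiation machinery, read 11.11, 11.34 and 11.03 in wild type, 10.32 and 10.37 in ssn6, and 8.86 and 10.06 in tup1. It fell in tup1 by 1.70 ± 0.32 (adjusted p = 0.0114), again with no overlap between tup1 and the other arrays.

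The catalytic core genes had smaller differences in tup1. RPA135, the second-largest subunit, read 13.10, 12.50 and 12.81 in wild type, 12.36 and 12.32 in ssn6, and 11.18 and 12.16 in tup1, a difference in tup1 of −1.14 ± 0.30 that passed (adjusted p = 0.0351). RPA190, the largest subunit, read 12.21, 11.9998 and 12.14 in wild type, 11.61 and 11.77 in ssn6, and 10.95 and 11.79 in tup1, and its difference of −0.75 ± 0.24 did not pass (adjusted p = 0.0628). Its tup1 array 2 lay level with ssn6 array 2 and below wild type. In ssn6 the differences of the 4 genes ran from −0.43 ± 0.24 (RPA190, adjusted p = 0.243) to −0.81 ± 0.32 (RPA43, adjusted p = 0.115), with no overlap with wild type. Without tup1 array 1 RPA49 and RPA43 remained called and RPA135 did not, nor was it called without wild-type array 1 or 3 or without either ssn6 array. RPA43 and RPA190 are the only genes of the 72 that are direct neighbours, divergently transcribed on chromosome XV.

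**Figure D3:**
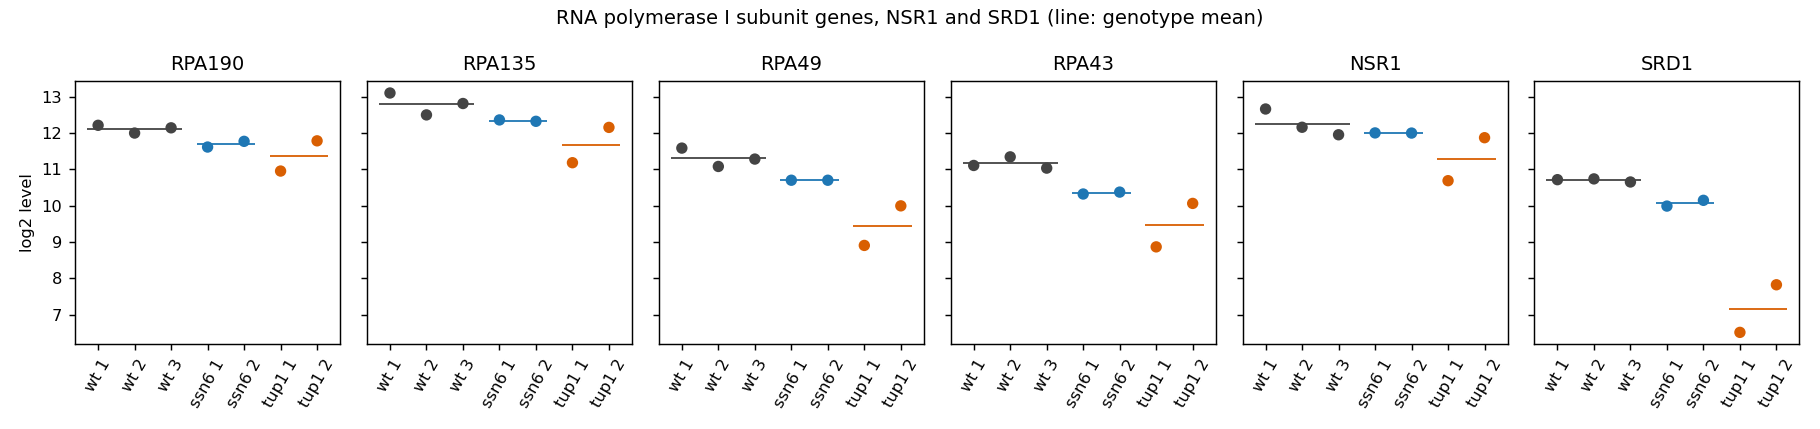
Log2 level (vertical axis) of 4 RNA polymerase I subunit genes, NSR1 and SRD1 on the 7 arrays (horizontal axis), with the mean of each genotype as a line. RPA49, RPA43, SRD1, RPA135 and NSR1 have both tup1 values below every other array. For RPA135 and NSR1 tup1 array 2 is only slightly lower than the ssn6 arrays, and for RPA190 it is level with ssn6 array 2.

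SRD1, whose product carries a GATA-like zinc finger and was linked to rRNA precursor processing, differed most of the 72. It read 10.72, 10.74 and 10.65 in wild type, 9.99 and 10.15 in ssn6, and 6.51 and 7.82 in tup1. It fell in tup1 by 3.54 ± 0.34 (11.6-fold, adjusted p = 0.000614), and its ssn6 difference of −0.63 ± 0.34 did not pass (adjusted p = 0.221). It fell against ssn6 as well, by 2.90 ± 0.37 (adjusted p = 0.0143), a call that was lost without either ssn6 array and with only the genotypes compared. The groups do not overlap, and the wild-type arrays lie within 0.09 of each other. Without SRD1 the other 71 genes had a median of −1.03 in tup1. SRD1 lies 62 genes from TUP1 on chromosome III, where RRP43, 41 genes away, is the nearest of the 72.

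The UTP-A proteins bind the precursor first, at its leading end, and are also linked to rRNA transcription. In tup1 5 of 6 UTP-A genes fell, all but UTP9, and in ssn6 0 of 6 passed. UTP4 read 9.95, 10.24 and 9.96 in wild type, 9.09 and 9.12 in ssn6, and 7.42 and 9.17 in tup1, with a fall in tup1 (−1.75 ± 0.44, adjusted p = 0.0308). Its tup1 array 1 was far below all others, while array 2 lay level with ssn6. UTP5 read 11.88, 11.999 and 11.34 in wild type, 10.86 and 10.82 in ssn6, and 9.61 and 10.94 in tup1, and it fell by 1.46 ± 0.38 (adjusted p = 0.0343). UTP9 read 11.00, 11.50 and 10.43 in wild type, 10.82 and 10.79 in ssn6, and 9.86 and 10.51 in tup1, so that the ssn6 arrays and tup1 array 2 lay within the wild-type range, and both tup1 arrays lay below both ssn6 arrays. UTP8, UTP10 and UTP15 fell in tup1 by 1.33, 0.98 and 1.22. The calls of UTP5, UTP8, UTP10 and UTP15 were lost without wild-type array 1 or 2, and that of UTP10 also without array 3. Those of UTP5, UTP8 and UTP10 were lost with only the genotypes compared. Without tup1 array 1 only UTP4 of the UTP-A genes remained called. Its call was lost when any single wild-type or ssn6 array was left out.

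UTP-B is the next module on the precursor, and it bridges the U3 snoRNP to the transcript. UTP6 fell in both deletions, and UTP18 in tup1. UTP6 read 9.92, 10.23 and 9.63 in wild type, 8.45 and 8.41 in ssn6, and 7.40 and 8.49 in tup1. It fell by 1.497 ± 0.32 in ssn6 (2.82-fold, adjusted p = 0.02) and by 1.98 ± 0.32 in tup1 (3.96-fold, adjusted p = 0.00672), with every deletion array below wild type. UTP18 read 10.51, 10.73 and 9.90 in wild type, 9.82 and 9.64 in ssn6, and 8.31 and 8.82 in tup1, with a fall in tup1 (−1.81 ± 0.27, adjusted p = 0.00466). Its tup1 values lie below all others, although without tup1 array 1 its adjusted p was 0.0506. UTP21, at 11.53, 11.55 and 11.07 in wild type, 10.95 and 10.98 in ssn6, and 9.82 and 10.97 in tup1, passed in neither comparison. UTP13 passed in neither as well (−0.85 ± 0.45 in ssn6 and −1.48 ± 0.45 in tup1).

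Of the 3 UTP-C genes, 2 fell in tup1 and 1 in ssn6. UTP22 read 10.93, 10.64 and 10.66 in wild type, 10.83 and 10.94 in ssn6, and 10.07 and 10.08 in tup1. It fell in tup1 by 0.67 ± 0.14 (adjusted p = 0.0171) and differed by 0.14 ± 0.14 in ssn6, where its arrays overlapped with wild type. The tup1 call was lost without tup1 array 1. Against ssn6 it fell in tup1 by 0.81 ± 0.16 (adjusted p = 0.0483), which was lost without any 1 array except wild-type array 2. RRP7 read 11.04, 10.72 and 10.96 in wild type, 10.31 and 10.47 in ssn6, and 10.58 and 10.54 in tup1. It fell in ssn6 by 0.52 ± 0.15 (adjusted p = 0.0492) and was not called in tup1 (−0.34 ± 0.15, adjusted p = 0.132); its difference between the deletions, 0.17 ± 0.16, did not pass. Its ssn6 call was lost without either ssn6 array, either tup1 array or wild-type array 1 or 3. RRP36 read 8.47, 8.87 and 8.15 in wild type, 8.13 and 7.56 in ssn6, and 6.34 and 7.73 in tup1, and it fell in tup1 by 1.46 ± 0.42 (adjusted p = 0.0441), a call kept only without tup1 array 2. UTP22 and RRP7 had tup1 arrays within 0.05 of each other, whereas those of RRP36 were 1.38 apart.

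Of the 22 U3 snoRNP and other small-subunit factors, 15 fell in tup1 and 6 in ssn6, with medians of −1.16 and −0.65. UTP11, a processome component, read 10.002, 10.04 and 9.92 in wild type, 8.71 and 8.51 in ssn6, and 7.95 and 8.76 in tup1. It fell by 1.38 ± 0.23 in ssn6 (2.60-fold, adjusted p = 0.00811) and by 1.63 ± 0.23 in tup1 (3.09-fold, adjusted p = 0.00394), and all deletion arrays lay more than 1 below wild type. RRP12, needed for export and late maturation of precursor particles, read 11.86, 11.98 and 11.11 in wild type, 10.77 and 10.73 in ssn6, and 9.45 and 10.37 in tup1, with a fall in tup1 (−1.74 ± 0.34, adjusted p = 0.0123). Without tup1 array 1 its adjusted p was 0.0924. SOF1, at 9.94, 9.36 and 9.47 in wild type, 9.63 and 9.53 in ssn6, and 8.36 and 9.40 in tup1, passed in neither comparison. Its ssn6 arrays and tup1 array 2 lay within the wild-type range, and both tup1 arrays lay below both ssn6 arrays.

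The other genes called in ssn6 within this group were NOP9, KRR1, NOP14, NOP19 and UTP30, and each also fell in tup1. NOP9, an RNA-binding protein with Puf-like repeats, read 10.70, 10.43 and 10.35 in wild type, 9.23 and 9.24 in ssn6, and 8.44 and 9.46 in tup1, and it fell by 1.26 ± 0.29 in ssn6 (adjusted p = 0.0238) and 1.54 ± 0.29 in tup1 (adjusted p = 0.0106). KRR1, a KH-domain protein, read 11.74, 12.12 and 12.02 in wild type, 10.85 and 10.78 in ssn6, and 9.90 and 11.03 in tup1. Its differences were −1.14 ± 0.31 in ssn6 (adjusted p = 0.0419) and −1.49 ± 0.31 in tup1 (adjusted p = 0.0158), and both deletions lay below wild type. NOP14, a processome component, fell by 1.08 ± 0.29 in ssn6 (adjusted p = 0.041) and 1.39 ± 0.29 in tup1 (adjusted p = 0.0161). NOP19 fell by 1.04 ± 0.29 in ssn6 (adjusted p = 0.0456) and 0.99 ± 0.29 in tup1 (adjusted p = 0.0476), while its wild-type values of 9.67, 8.71 and 9.44 spread by almost as much. UTP30 read 10.21, 9.61 and 10.05 in wild type, 9.33 and 9.10 in ssn6, and 9.09 and 9.13 in tup1. It fell in both (−0.75 ± 0.20, adjusted p = 0.0386, and −0.85 ± 0.20, adjusted p = 0.0233). In both deletions the NOP19 and UTP30 calls were lost without wild-type array 1 or 3. With only the genotypes compared, those of NOP19 in both deletions and of UTP30 in ssn6 were lost as well. In ssn6 the KRR1 call was lost when any 1 wild-type array was left out. The NOP14 call in ssn6 was lost without wild-type array 1 or 2, and that of NOP9 without array 1. In tup1 the NOP14 call was lost without wild-type array 1.

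Further falls in tup1 were those of UTP23 (−1.55 ± 0.32, adjusted p = 0.015), NOP6, RRP9, RRP5, IMP4, RRP3, UTP7 and UTP25 (−0.97). RRP9, the U3-specific protein of the U3 snoRNP, read 9.91, 9.77 and 9.36 in wild type, 9.23 and 9.19 in ssn6, and 8.33 and 8.41 in tup1, and it fell by 1.31 ± 0.18 (adjusted p = 0.00352). Its tup1 arrays lay within 0.09 of each other, unlike those of most of the 72 genes. UTP7 and NOP6 fell by 1.15 ± 0.20 and 1.32 ± 0.26 and were called in all 17 settings. Not called in either deletion were BMS1, a GTPase, IMP3, MRD1, NSR1, SOF1, UTP14 and UTP20. NSR1, the yeast relative of nucleolin, read 12.66, 12.16 and 11.95 in wild type, 12.004 and 11.999 in ssn6, and 10.69 and 11.87 in tup1, differences of −0.26 ± 0.35 in ssn6 (adjusted p = 0.633) and −0.98 ± 0.35 in tup1 (adjusted p = 0.0881). Its ssn6 arrays lay within the wild-type range, and tup1 array 1 was more than 1 below every other array. Without tup1 array 1, KRR1, NOP6, NOP9, RRP9, UTP11 and UTP7 remained called of the 15.

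The core proteins of the modification-guiding snoRNPs showed the smallest median difference of the roles in ssn6, −0.31, where 0 of 7 passed, and 2 of 7 fell in tup1, with a median of −0.77. NHP2, a box H/ACA protein, read 13.13, 13.43 and 13.00 in wild type, 12.95 and 12.85 in ssn6, and 11.79 and 12.52 in tup1, and it fell by 1.03 ± 0.24 (adjusted p = 0.0229). NOP1, the fibrillarin-type methyltransferase of box C/D snoRNPs, read 13.30, 12.73 and 12.94 in wild type, 12.65 and 12.71 in ssn6, and 11.61 and 12.40 in tup1, and it fell by 0.99 ± 0.26 (adjusted p = 0.037). Both calls were lost without tup1 array 1 and without wild-type array 1, and that of NOP1 also without wild-type array 3 or either ssn6 array. CBF5, the pseudouridine synthase, read 13.17, 12.99 and 12.86 in wild type, 12.66 and 12.70 in ssn6, and 12.14 and 12.65 in tup1, and its tup1 difference of −0.61 ± 0.18 had an adjusted p of 0.0527. NOP56, NOP58, GAR1 and NOP10 passed in neither deletion, with tup1 differences of −0.81, −0.66, −0.77 and −0.71. Except on tup1 array 2 for NOP10, all deletion arrays of the 7 genes lay below wild type.

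Of the 18 large-subunit factors, 8 fell in tup1 and 0 passed in ssn6, while the ssn6 median was −0.70, against −0.65 for the small-subunit factors. DBP2, a DEAD-box helicase that also acts in mRNA metabolism, read 13.19, 12.99 and 12.84 in wild type, 11.67 and 11.69 in ssn6, and 10.57 and 12.10 in tup1. It fell in tup1 by 1.67 ± 0.39 (adjusted p = 0.0246), and its ssn6 difference of −1.33 ± 0.39 missed the threshold (adjusted p = 0.0557) with both arrays more than 1 below wild type. The tup1 call was kept without tup1 array 1 and lost without wild-type array 1 or 3 (highest adjusted p = 0.0684). RRP14 read 10.68, 11.53 and 10.60 in wild type, 9.99 and 9.80 in ssn6, and 8.82 and 9.86 in tup1, and it fell in tup1 by 1.59 ± 0.37 (adjusted p = 0.0241). NOP2, a methyltransferase that acts on the large-subunit rRNA, had the smallest difference of this group in tup1, −0.60 ± 0.22 (adjusted p = 0.0945). It read 12.10, 12.12 and 11.78 in wild type, 11.54 and 11.66 in ssn6, and 11.06 and 11.75 in tup1, the last of which lay just below the wild-type range.

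The others called in tup1 were RRP1, NOP15, NOP13, NOP7, NOP16 and the helicase gene DBP9, with differences from −1.37 to −1.03. The NOP7 call was lost without wild-type array 1. Those of RRP1, NOP15, NOP13, NOP16 and DBP9 were lost when any 1 wild-type array was left out, and with only the genotypes compared. Of the 8 calls, DBP2 alone was kept without tup1 array 1. Not called in either deletion were NOP4, NOP8, NOP12, NOP53, RRP8, RRP15, RRP17, NOP2 and the helicase genes DBP3 and SPB4. This role had the widest median gap between the tup1 arrays apart from SRD1 alone, −1.27, and a gap over 1 for 14 of 18 genes. On tup1 array 2, 15 of the 18 lay above both ssn6 arrays, as did 36 of the 72 and 2795 of all 5449 genes. NOP53, which docks the exosome on the precursor, was at 9.11 on tup1 array 1 and at 10.65 on array 2, which was within the wild-type values of 10.23, 11.01 and 10.27.

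Of the 7 RNA exosome subunits, 4 fell in ssn6 and 5 in tup1, with medians of −0.69 and −0.65. RRP45 read 11.52, 11.52 and 11.26 in wild type, 10.37 and 10.28 in ssn6, and 10.54 and 10.59 in tup1. It fell by 1.10 ± 0.14 in ssn6 (2.15-fold, adjusted p = 0.00233) and by 0.86 ± 0.14 in tup1 (1.82-fold, adjusted p = 0.00655), with all 4 deletion arrays well below wild type. RRP4, a cap subunit that binds RNA, read 11.25, 10.98 and 11.06 in wild type, 10.35 and 10.31 in ssn6, and 10.20 and 10.41 in tup1, and it fell by 0.77 ± 0.14 (adjusted p = 0.012) and 0.79 ± 0.14 (adjusted p = 0.00977).

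RRP42 and RRP43, ring subunits like RRP45 and RRP46, fell by 0.70 ± 0.14 (adjusted p = 0.014) and 0.69 ± 0.14 (adjusted p = 0.0177) in ssn6, and by 0.61 and 0.65 in tup1. RRP6, the nuclear exonuclease of the complex, fell in tup1 by 0.65 ± 0.18 (adjusted p = 0.0407). That call was lost when any 1 wild-type array was left out, and the tup1 calls of RRP42 and RRP43 without wild-type array 1. With only the genotypes compared, RRP6, RRP42 and RRP43 were not called in tup1. RRP40 (−0.07 in ssn6 and −0.13 in tup1) and RRP46 (−0.09 and −0.06) passed in neither deletion and overlapped with wild type in both. RRP46 read 11.28, 11.46 and 11.33 in wild type, 11.26 and 11.29 in ssn6, and 10.85 and 11.74 in tup1. The tup1 arrays were a median of 0.21 apart on the 7 genes and more than 1 apart for 0 of them. Of the 5 tup1 calls, RRP45 alone was kept without tup1 array 1.

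**Figure D4:**
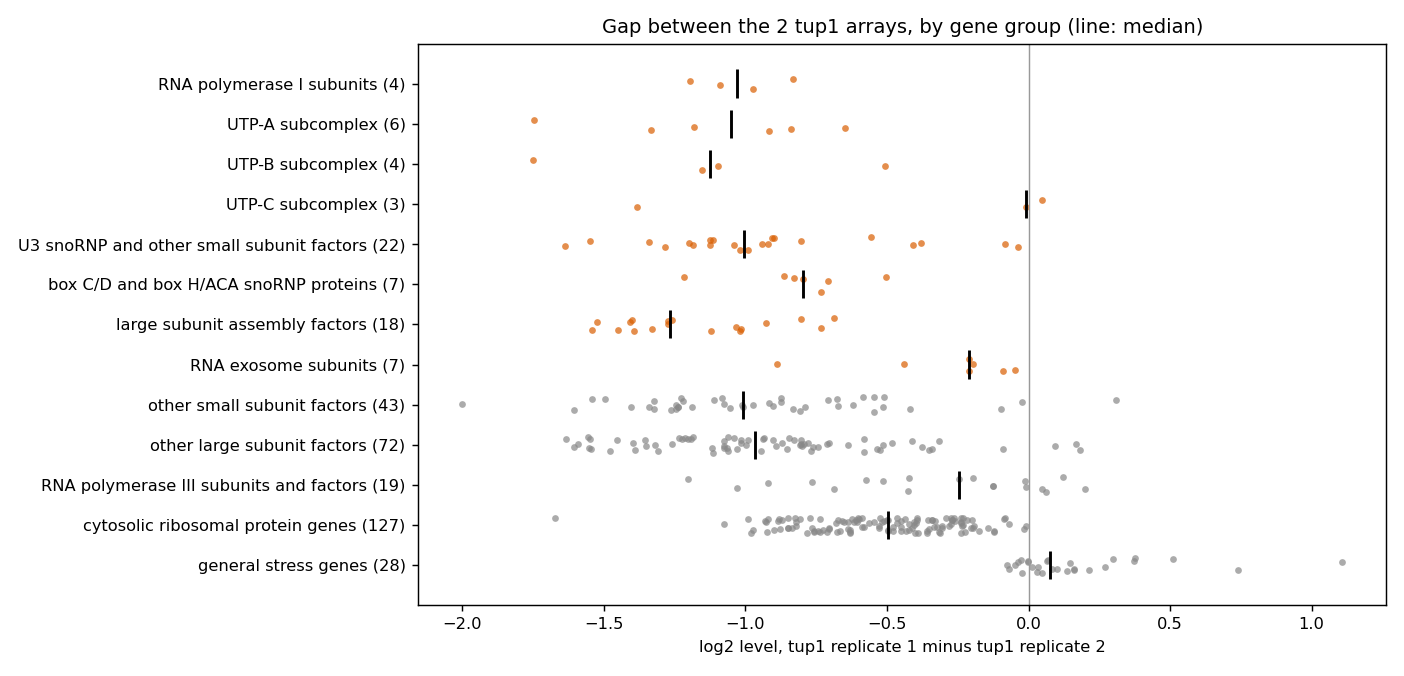
Log2 level on tup1 array 1 minus that on tup1 array 2 (horizontal axis) for the genes of each role (orange) and of other gene groups (grey), with medians as lines and the number of genes in brackets, SRD1 not included. Most roles have medians between −1.27 and −0.80, the exosome genes have a median of −0.21, 2 of the 3 UTP-C genes lie near 0, and the ribosomal protein and general stress genes have medians of −0.50 and 0.08.

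Between the deletions only SRD1 and UTP22 passed, both lower in tup1, and 0 genes were higher (1.91% of all genes were called lower and 0.496% higher). The median difference of the 72 genes was −0.50, against 0.07 over all genes, and 66 had a lower mean in tup1 (2304 of all 5449 genes did). Both tup1 arrays were below both ssn6 arrays for 28 genes (24.4% of all genes were) and above them for 2, RRP45 and RRP7 (39.2% of all genes were). The largest differences after SRD1 were those of RPA49 (−1.25, adjusted p = 0.117) and UTP18 (−1.16, adjusted p = 0.0982). Without tup1 array 1 the median became 0.05, with SRD1 alone called (0.459% of all genes were called lower), and without tup1 array 2 it was −1.03 with 17 genes called (3.14%). Without ssn6 array 1 or 2, 0 of the 72 passed (0.202% and 0.0734%). A larger number of calls in tup1 than in ssn6 is thus not matched by differences between the deletions that pass, except for these 2 genes.

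Among genes of the same pathway outside the 72, the share called lower was under the 10.3% of all genes in ssn6 and over the 12.6% of all genes in tup1 for both assembly factor lists. Of 43 other small-subunit factors, 3 fell in ssn6 and 22 fell and 1 rose in tup1, with medians of −0.55 and −1.08. KRE33, the rRNA acetyltransferase, fell by 1.38 ± 0.29 in ssn6 (adjusted p = 0.0191) and by 1.93 ± 0.29 in tup1 (adjusted p = 0.00511). CMS1 and SQS1 also fell in ssn6, by 0.73 and 0.53, and the other leading differences in tup1 were those of ESF1 (−2.03 ± 0.56, adjusted p = 0.0394) and TSR2, a chaperone of a small-subunit protein (−1.76 ± 0.31, adjusted p = 0.0082). Of 72 other large-subunit factors, 3 fell in ssn6 (MAK11, DBP6 and RAI1, with differences of −0.94 to −0.79) and 42 in tup1, led by SYO1, a chaperone of ribosomal proteins (−1.82 ± 0.41), MAK16 (−1.79 ± 0.40) and MRT4 (−1.78 ± 0.34). SQT1 and GRC3 of this list were lower in tup1 than in ssn6, with differences of −1.13 and −1.04. The 2 tup1 arrays were 1.01 and 0.97 apart, as medians, on these 2 lists, close to the 1.004 of the 72 genes. The tup1 calls of KRE33, TSR2, MAK16 and MRT4 remained without tup1 array 1 and those of ESF1 and SYO1 did not, and the 6 ssn6 calls named here were lost without either ssn6 array. The calls of SQT1 and GRC3 against ssn6 were lost without tup1 array 1. The tup1 call of MAK16 against wild type was lost without wild-type array 1 or 3.

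Of 21 other subunits and initiation factors of RNA polymerase I, including subunits shared with the other polymerases, 10 fell in tup1, led by RPA12 (−1.29 ± 0.21), the shared subunit gene RPC40 (−1.29 ± 0.29) and RPA34, the partner of RPA49 (−1.26 ± 0.29). In ssn6 UAF30, of the upstream activating factor, fell by 0.66 ± 0.19 and RRN7, of the core factor, rose by 0.84 ± 0.18 (adjusted p = 0.0204). RRN7 and RRN11, also of the core factor, were lower in tup1 than in ssn6, with differences of −1.04 and −0.85. Of 19 RNA polymerase III subunits and factors, TFC8, MAF1 and RPC17 fell in ssn6, and 4 fell in tup1, among them RPC82, RPC17 and RPC31. MAF1, a repressor of RNA polymerase III, fell in ssn6 by 0.90 ± 0.12 (adjusted p = 0.00287). Of 10 other exosome subunits and cofactors, LRP1 fell in ssn6 and AIR1, MTR3 and TRF5 in tup1, and AIR1 was lower in tup1 than in ssn6 (−0.98 ± 0.15, adjusted p = 0.0278). Of the tup1 calls named for these lists, that of AIR1 against wild type alone remained without tup1 array 1, and all those named against ssn6 were lost. Of the ssn6 calls against wild type, that of MAF1 was lost without ssn6 array 1 and the others without either ssn6 array.

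Among 15 transcription regulators of ribosome genes, CRF1, known as a corepressor of ribosomal protein genes, rose in both deletions. It read 8.10, 7.76 and 7.59 in wild type, 9.59 and 9.59 in ssn6, and 9.92 and 9.67 in tup1. The rises were 1.77 ± 0.18 (adjusted p = 0.000831) and 1.97 ± 0.18 (adjusted p = 0.000468), with all deletion arrays above wild type and the tup1 arrays close together. RPD3, a histone deacetylase gene, fell in ssn6 by 0.49 ± 0.12 (adjusted p = 0.0343), and no other regulator passed in either deletion. The CRF1 calls remained when any 1 array was left out, and that of RPD3 was lost without either ssn6 array or wild-type array 1 or 3.

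Ribosomal protein genes, which are often co-regulated with the 72, had smaller median differences. Of 127, 2 rose and 0 fell in ssn6, RPS28B by 1.32 ± 0.36 and RPS9A by 1.03 ± 0.28 (adjusted p = 0.0417 for both), and 0 rose and 4 fell in tup1, RPL6B the most (−0.95 ± 0.18, adjusted p = 0.0113). Many of these genes have a near-identical copy, and cross-hybridisation was not tested. The RPL6B call was lost without tup1 array 1, and those of RPS28B and RPS9A without either ssn6 array, either tup1 array or wild-type array 1, and for RPS9A also array 2. Their medians were −0.05 in ssn6 and −0.29 in tup1, and their mean level was 12.66 on tup1 array 1 and 13.18 to 13.28 on the other 6 arrays. Beside this list and the next, 9.18% of all genes were called higher and 10.3% lower in ssn6, and 10.4% and 12.6% in tup1. Of 28 general stress genes, 6 rose and 2 fell in ssn6 and 9 rose and 2 fell in tup1. SIP18 (3.31 ± 0.31), GRE1 (3.01 ± 0.36) and GAC1 (2.10 ± 0.17) rose most in tup1, and the same 3 led in ssn6 (1.84 to 2.19), where SIP18 and GRE1 were not called without either ssn6 array. Over the 28 genes the mean level was 12.80 to 12.90 in wild type, 13.24 and 13.27 in ssn6, and 13.53 and 13.36 in tup1, so that it was highest on the array where the 72 genes were lowest. The part of stress or growth state in the result was not tested.

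The rRNA control probe sets varied among the arrays as well. Their mean log2 level was 11.06, 8.41 and 12.42 in wild type, 8.73 and 7.47 in ssn6, and 6.72 and 9.34 in tup1. Wild type alone ran from 8.41 to 12.42, ssn6 array 1 and tup1 array 2 lay within that range, and tup1 array 1 was the lowest. The labelling protocol is not given in detail, so these levels are a description of the labelled RNA and not of cellular rRNA. Wild-type array 2 had an actin 3′ to 5′ difference of 2.06 where the other 6 arrays had 0.30 to 0.61, and its 72 genes had the highest median of all arrays. With both that array and tup1 array 1 left out, a check chosen after seeing the data, 39 genes were called lower in ssn6 and 22 in tup1, with a tup1 median of −0.53. In that fit 17.6% of all genes were called lower in ssn6 and 8.19% in tup1.

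**Figure D5:**
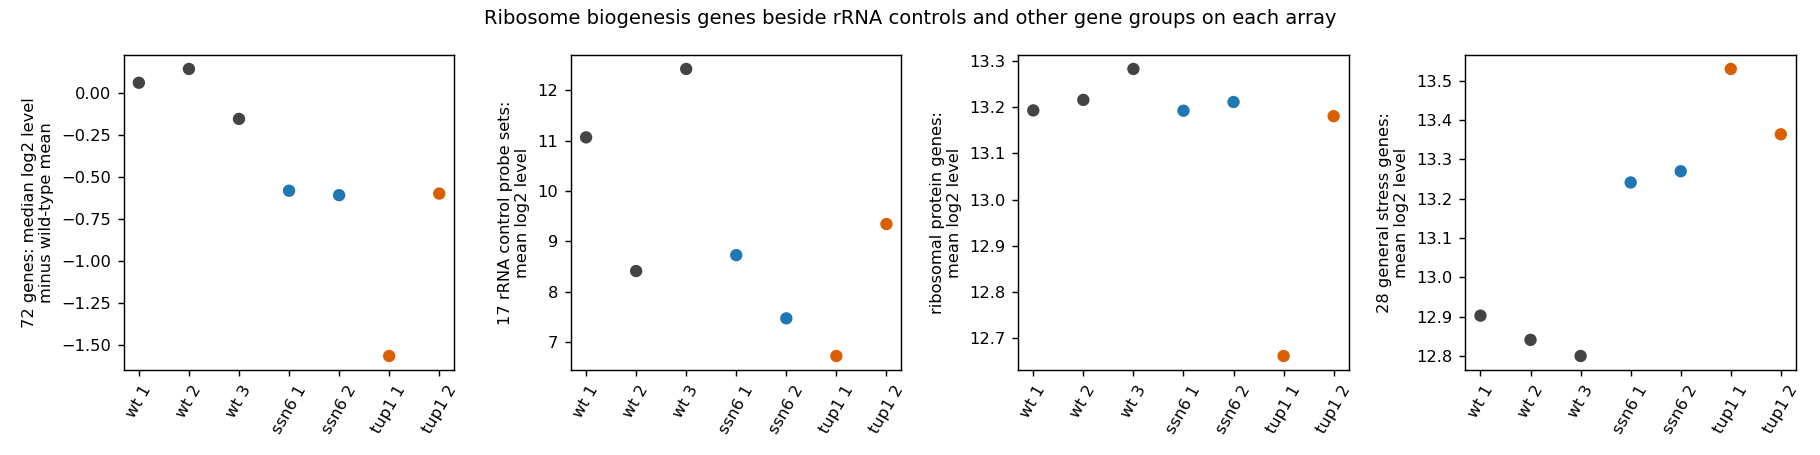
Levels on the 7 arrays (horizontal axis): the median log2 level of the 72 genes minus the wild-type mean, and the mean log2 level of 17 rRNA control probe sets, 127 ribosomal protein genes and 28 general stress genes. On tup1 array 1 the 72 genes, the rRNA controls and the ribosomal protein genes are at their lowest of the 7 arrays and the stress genes at their highest.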

How the data were processed

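Total RNA of the 7 samples was labelled with biotin and hybridised one sample per array. The deposited values are log2 levels per probe set. Per the submitters' processing notes the tools were RMA and limma, with neither their roles nor versions stated, and the background correction, normalization and annotation build are not given in the sources used here. RMA usually includes quantile normalization, and its log2 values compress differences of dim genes. Arrays give no read depth, so precision is limited by 7 arrays.

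Groups were taken from the labels. All 3 wild-type arrays were used, though the design text mentions duplicates. Of 10928 probe sets 5498 match 1 budding yeast gene. For 47 genes with several probe sets, none of them among the 72, the brightest was kept, which gave 5449 genes. The 3 genotype means of each gene were estimated from all 7 arrays in a single linear model (limma 3.58.1 under R 4.3.3, lmFit and eBayes). It had 4 residual and 3.19 prior degrees of freedom. Tests were two-sided, and p-values were adjusted by Benjamini-Hochberg across the whole table, with a threshold of 0.05. Errors after ± are moderated SEs. Intervals are at 95%. The procedure was tested on simulated data with independent noise for each gene and array, for the ssn6 comparison with wild type only. A shift shared by many genes on 1 array was not simulated. Replicate arrays shared exactly equal values for at most 1 gene, so none was a duplicate.

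The 72 genes and all lists were chosen with earlier results of these data known, so no list was tested and no p-value was adjusted over a list alone. Named were the polymerase subunits, NSR1, SRD1, up to 12 members called per comparison, the 2 largest and the smallest difference of each role, and up to 3 called genes of each further list. Alternatives were quantile normalization, median centring, a filter at the floor, trend and robust eBayes, only the genotypes compared, array weights, a replicate block, averaged probe sets, a stricter threshold of 0.01 and the omission of each array in turn. These overlap. In each comparison with wild type, omitting either array of the other deletion gave the same fit as only the genotypes compared. Averaged probe sets changed no value of the 72 genes, and the filter removed none of them. Python 3.11.15 and matplotlib 3.10.9 drew the figures.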

Additional observations from a re-analysis of the deposited data

How the results depend on the processing

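The number of the 72 genes called lower in ssn6, 12 with all arrays, was 30 with only the genotypes compared, 32 with array weights, 39 without wild-type array 2 and tup1 array 1, 2 at an adjusted p of 0.01 and 1 to 30 when each array was left out. For tup1, with 43, the counts were 24, 44, 22, 9 and 13 to 65. Between the deletions, with 2, they were 1 with trend and robust settings, 6 with array weights, 1 with both arrays left out, 0 at 0.01 and 0 to 17. Over all genes the ssn6 count of 1059 became 2139 with array weights, 397 at 0.01 and 279 to 1196 with arrays left out. The tup1 count of 1255 became 767 with only the genotypes compared, 830 with both arrays left out, 456 at 0.01 and 427 to 1366. The count between the deletions, 131, became 412 with array weights, 75 with both arrays left out, 25 at 0.01 and 5 to 257. The tup1 median of the 72 genes, −1.05, was −0.53 with both arrays left out and −1.57 to −0.60 with 1 left out. The median between the deletions, −0.50, reversed to 0.0489 without tup1 array 1, with or without wild-type array 2, and ranged from −1.03 to 0.0489. Where a genotype drops out of the fit, or a lone array is left, the spread comes from fewer arrays, and a single remaining array borrows the spread of the other genotypes. The other causes were not tested. Median centring moved the ssn6 calls over all genes from 500 higher and 559 lower to 536 and 439, and left 8, 42 and 2 of the 72 genes called. Quantile normalization left 10, 43 and 2. Same-numbered arrays of wild type and tup1 deviated together (r = 0.285 and 0.18 over genes, 0.408 and 0.41 over the 72), while all same-numbered pairs with an ssn6 array deviated in opposite directions (−0.361 to −0.268 over genes, −0.2 to −0.133 over the 72), so the numbers were not taken to pair the samples. The 2 arrays of a deletion mirror each other around their mean. With the ssn6 numbers swapped, the same correlations therefore have the opposite sign, and the pairs of an ssn6 with a tup1 array repeat a single correlation. With the replicate number as a block, 9 genes were called in ssn6, 34 in tup1 and 1 between the deletions, and 58 between the deletions over all genes. A crossed block, with the ssn6 numbers swapped and added after seeing the data, gave 16, 47 and 3. The motif search in promoters was not run.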
